A study of Mesocricetus auratus with 6 samples.

Results

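The contractile and adhesion genes of smooth muscle were examined in the pregnant uterus of the golden hamster (Mesocricetus auratus). A list of 45 gene symbols was used, and every probe set whose platform annotation gave exactly 1 gene symbol equal to a listed one was taken. This found 79 probe sets for 41 genes, of 12393 genes that the array measured in the same way. Myh10, Ppp1r12a, Synm and Pgm5 were not measured by such a probe set and are not analysed here. Of the 41 genes, 20 had 1 probe set and 21 had several, up to 6, and the probe set with the highest mean over the 6 arrays stood for its gene. RefSeq lists all 41 symbols for the hamster (assembly BCM_Maur_2.0).

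The RNA came from untreated animals on day 5 of pregnancy, when the blastocyst attaches to the uterine wall. The 2 groups were the segments of uterus that held an embryo (implantation sites, 3 arrays) and the segments between them (interimplantation sites, 3 arrays), and each array was labelled a biological replicate. The study took its RNA from 3 different animals. It is not stated in the labels whether arrays with the same number in both groups shared an animal. If the same 3 animals gave the arrays of both groups, the arrays are not all independent, however they are numbered. The main comparison was fitted with group alone. Its standard errors and p-values therefore treat every array as independent and make no allowance for shared animals. The whole segment of uterus was the labelled tissue. An implantation segment can hold embryonic tissue as well as the uterine wall, and fewer cells of a type cannot be told apart from less RNA per cell.

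The wall of the uterus carries an outer muscle coat, the myometrium, and blood vessels with smooth muscle of their own. Smooth muscle cells shorten when myosin pulls on actin thin filaments. Calcium and calmodulin switch on myosin light chain kinase, which phosphorylates the regulatory light chain of myosin, and a phosphatase reverses this. The force is carried to the cell surface by dense bodies, adhesion plaques, integrins and the sarcoglycan complex. Many of these genes are activated by the transcription factor Srf with its cofactor myocardin. Non-muscle cells, among them the stromal cells that turn into decidua, use related genes of the same families, such as Myh9, Tpm3, Tpm4, Cnn2 and Cnn3.

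Values are log2 RMA signals, on which a difference of 1 is a 2-fold change, and differences are implantation minus interimplantation. A gene was called at an adjusted p under 0.05 (limma, Benjamini-Hochberg over 22626 probe sets). The array carries mouse probes, so a mismatch with hamster RNA can lower a signal and shrink a difference, and a gene that was not called is not shown to be unchanged. The medians of the arrays ran from 4.55 to 4.57, and the number of arrays limits the precision. Of the 41 genes, 21 (51.2%) were brighter than the brightest of 27 Bacillus control probe sets, at 5.79, against 26.6% of all genes. The median level of those controls was 2.68, and all 41 genes lay above it. Interimplantation array 1 stood apart from arrays 2 and 3 of its group on the second principal component, at −20.7 against 11.6 and 7.67.

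Of the 41 genes, 3 were called at the implantation site, and they did not move as a block. Actg2 and Tagln, a muscle actin and an actin-binding protein, fell, and Ppp1r14b, an inhibitor of myosin phosphatase, rose. The other 38 were not called. Counted by probe set, 4 of the 79 were called lower and 1 higher, where 1.05% and 1.26% of all probe sets were. Over all genes, 1.18% were called lower and 1.36% higher. Because the list was drawn up with earlier results of these arrays known, its counts are a description. The median difference of the 41 genes was −0.046, against −0.020 over all genes, and 24 were negative and 17 positive. A negative difference was seen for 58.5% of them and for 56.2% of all genes. At an unadjusted p under 0.05, 10 were lower and 3 higher, where 8.67% of all genes were lower and 6.14% higher. By the brightest probe set, the groups of arrays did not overlap for 9 lower genes (Actg2, Tagln, Cnn1, Myl6, Myl9, Mylk, Vcl, Csrp1 and Hspb7). The same was seen for 4 higher genes (Cnn3, Tpm4, Ppp1r14b and Synpo2). Over all genes this held for 12.1% on the lower side and 8.02% on the higher side. An absolute difference under 0.25 was measured for 31 of the 41 genes (75.6%) and for 89.9% of all genes.

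**Figure D1:**
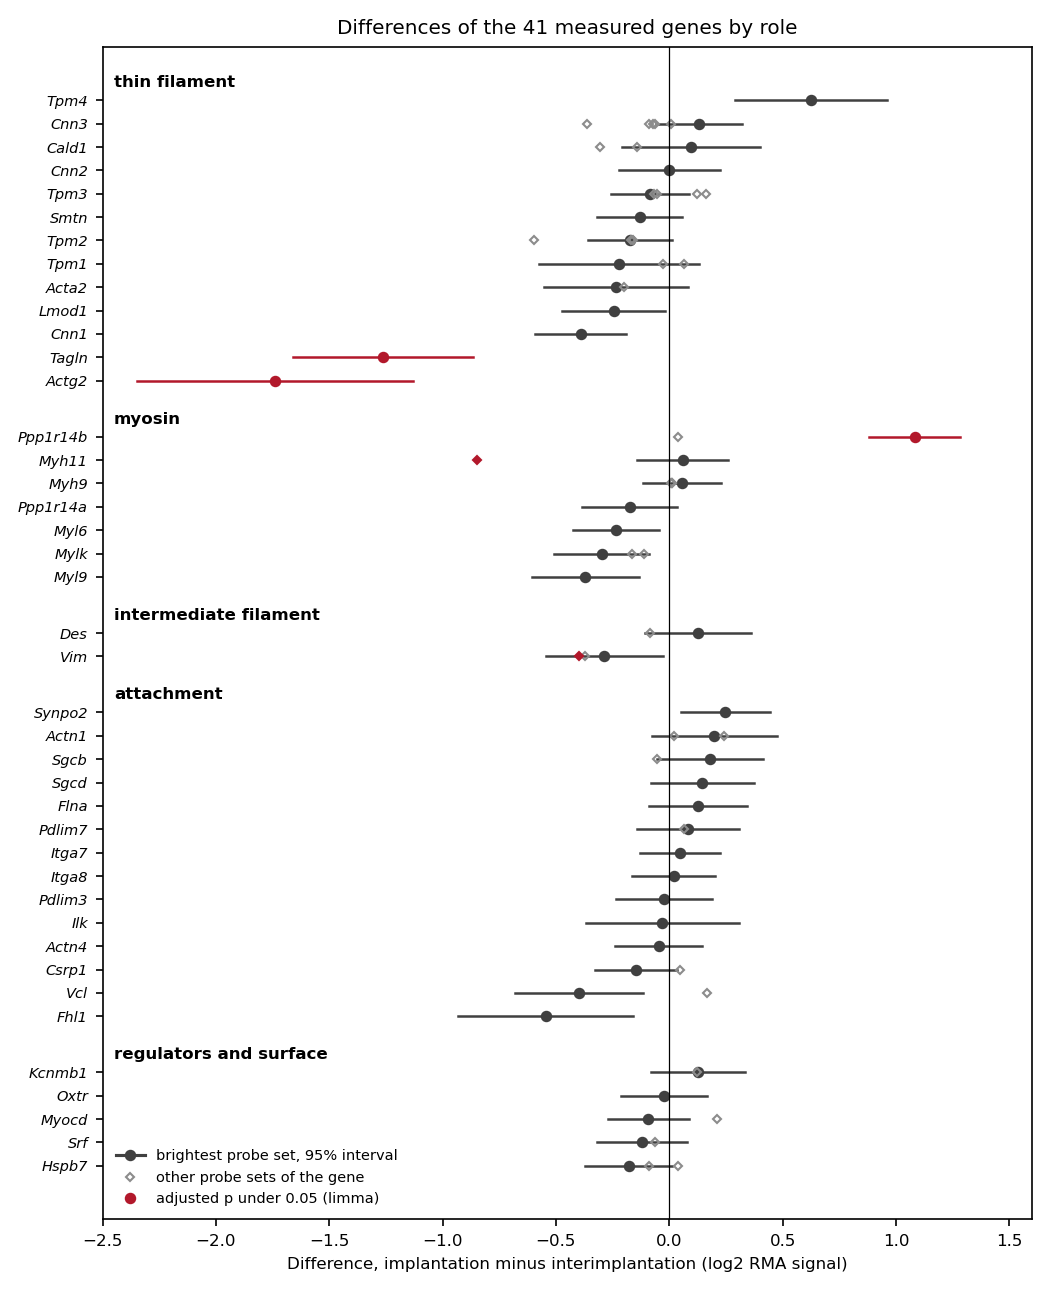
Difference between implantation and interimplantation sites (x axis, log2 RMA signal) for the 41 measured genes, grouped by role. Circles with lines are the brightest probe set and its 95% interval from the limma fit, diamonds are the other probe sets of the gene, and red marks an adjusted p under 0.05. Actg2 (−1.74) and Tagln (−1.26) lie far to the left and Ppp1r14b (1.08) to the right, while the attachment genes lie between −0.54 and 0.25.

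Among the 13 genes of the thin filament, 2 fell, none rose and 11 were not called. Their median difference was −0.17, and 9 were negative. Actg2 encodes the gamma actin of enteric and uterine smooth muscle, the main actin of visceral muscle. It read 6.52, 5.65 and 6.70 on implantation arrays 1 to 3 and 7.41, 8.54 and 8.13 on interimplantation arrays 1 to 3. Every implantation array lay below every interimplantation array, although the spread within the groups was the widest of the 41 genes. The mean fell from 8.03 ± 0.57 to 6.29 ± 0.56 (SD, n = 3), a 3.34-fold decrease (difference −1.74, SE 0.28, adjusted p = 0.00621). This was the decrease of rank 2 among 12393 genes. An empirical Bayes variance that was both trended and robust ended the call (adjusted p = 0.153), as did a covariate for the level of the hybridisation controls (adjusted p = 0.0583).

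Tagln encodes transgelin, or SM22, which binds actin filaments and is among the most used markers of smooth muscle. Its values were 7.46, 7.01 and 7.31 at the implantation site and 8.32, 9.03 and 8.22 between the sites. The groups did not overlap, and the gap between them was wider than the spread of the implantation arrays. The mean fell from 8.52 ± 0.44 to 7.26 ± 0.23 (SD, n = 3), 2.40-fold (difference −1.26, SE 0.18, adjusted p = 0.00343), which was rank 5 among all genes. Tagln was called under each of the 15 alternatives run for it, with adjusted p from 0.00154 to 0.0249.

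**Figure D2:**
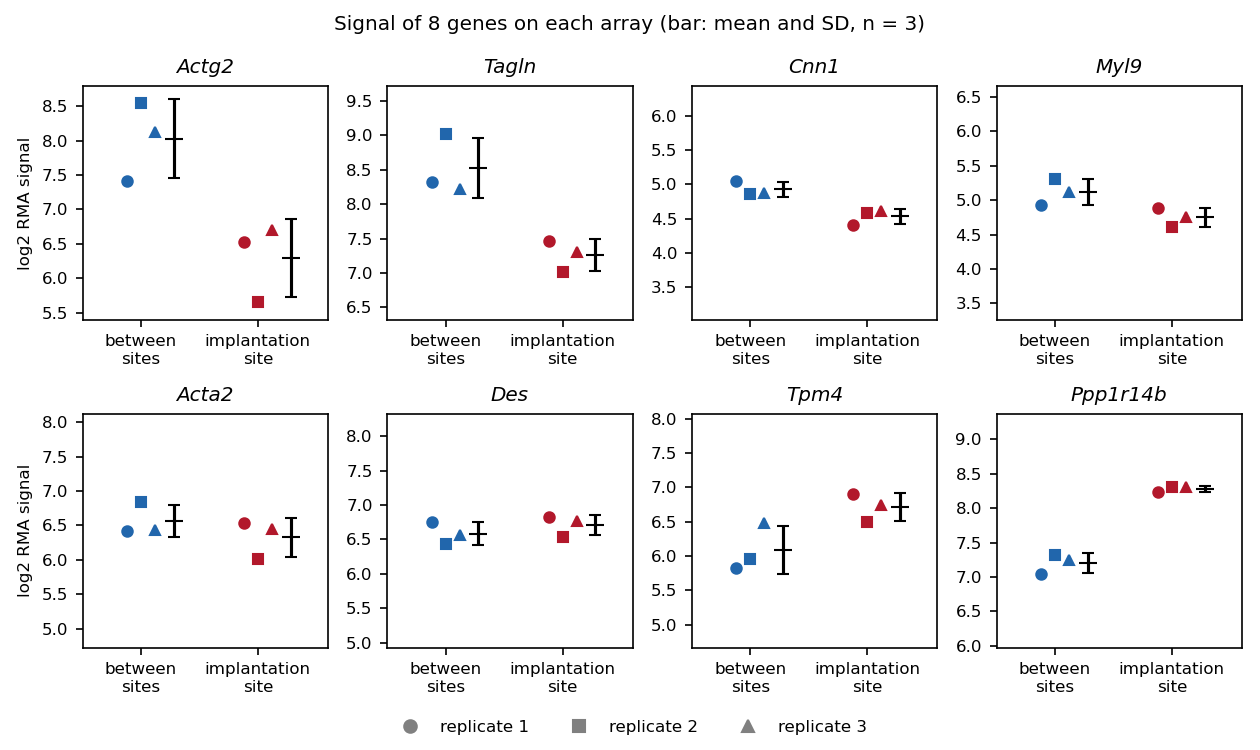
Log2 RMA signal (y axis, the same span of 3.4 units in each panel) of 8 genes on the 3 interimplantation arrays (blue) and the 3 implantation arrays (red), with symbols for the replicate number and black bars for the mean and SD. Actg2, Tagln, Cnn1 and Myl9 are lower on every implantation array, Acta2 and Des overlap, and Tpm4 and Ppp1r14b are higher on every implantation array.

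Acta2 encodes the alpha actin of vascular smooth muscle, which is also made by pericytes and activated fibroblasts. It read 6.53, 6.01 and 6.45 at the site and 6.42, 6.84 and 6.44 between the sites, so the groups overlapped (difference −0.24, SE 0.15, adjusted p = 0.524). Its second probe set was dim, between 3.46 and 3.85, with a difference of −0.20. The log2 ratio of Actg2 to Acta2 within each array changed by −1.50 on average at the site, with no overlap between the groups. Adding a constant to all log2 values of an array leaves such a ratio unchanged, but another normalization can change it. An exact two-sided permutation test of it gave p = 0.10 (adjusted p = 0.129 over the 9 pairs of related genes tested in this way), and 0.10 is the smallest p that 3 arrays against 3 allow.

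The coding sequences of the actins are nearly identical, so their probe sets can share signal, and the values of single actins are uncertain to that extent. The skeletal muscle actin Acta1 was also called, at 7.50 ± 0.085 against 8.03 ± 0.27 (SD, n = 3; difference −0.53, adjusted p = 0.0454), and the cardiac actin Actc1 was at −0.22 (adjusted p = 0.469). Of 13 markers of skeletal and cardiac muscle, Acta1 was the only one called. The Actg2 probe set has a name ending in a, which Affymetrix gives to sets that match several transcripts of a gene, and that of Acta2 has one ending in s, for sets shared between genes. Without all probe sets with such names, no probe set of Actg2 was left.

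The calponins bind actin and restrain myosin. Cnn1, the form of contractile smooth muscle, read 4.41, 4.58 and 4.62 at the site and 5.05, 4.86 and 4.87 between the sites. The groups did not overlap, and the difference was −0.39 (SE 0.09, 95% interval −0.59 to −0.19), with an adjusted p of 0.0509. Cnn1 was called lower under 3 of 15 alternatives. These were array weights (adjusted p = 0.0418), the filter on dim probe sets (adjusted p = 0.0347) and averaged probe sets (adjusted p = 0.0453). Cnn1 has 1 probe set, so the filter and the averaging left its difference at −0.39 and changed only what was tested beside it. It was not called without any single array (adjusted p from 0.0805 to 0.245). A fit blocked on replicate number did not call it either (adjusted p = 0.0794), nor did the hybridisation control covariate (adjusted p = 0.332). Cnn2, a form of non-muscle cells, overlapped between the groups (5.71, 5.53 and 5.88 against 5.83, 5.61 and 5.69), with an interval of the difference from −0.22 to 0.22. Cnn3, which is widely expressed, was at 0.13 by its brightest probe set, and the other 5 of its probe sets ran from −0.36 to 0.0076. The lowest of these read 5.59, 5.60 and 5.57 against 5.86, 6.11 and 5.89, lower without overlap (adjusted p = 0.0601). The probe sets of Cnn3 thus differed in direction. The ratio of Cnn1 to Cnn2 changed by −0.39 and that of Cnn1 to Cnn3 by −0.52 at the site, each with groups that did not overlap (exact permutation p = 0.10, adjusted p = 0.129). Cnn2 itself was at 0.00015, so the ratio to Cnn2 largely restates the difference of Cnn1. By their means, Cnn1 and Cnn2 lay above the median of the Bacillus controls and below the brightest of them. The ratio to Cnn3 holds for its brightest probe set and was not computed for the others.

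Tropomyosins lie along the actin filament and control the access of myosin. Tpm4, a form of non-muscle cells and platelets, read 6.91, 6.50 and 6.74 at the site and 5.83, 5.96 and 6.48 between the sites. The lowest implantation array was only just above the highest interimplantation array. The difference was 0.62 (SE 0.15, 95% interval 0.29 to 0.96), 1.54-fold, with an adjusted p of 0.0615. It was called higher under 5 of 15 alternatives, among them a fit blocked on replicate number (adjusted p = 0.0334) and the fit that left out interimplantation array 3 (0.82, adjusted p = 0.0109).

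The other tropomyosins were not called. Tpm1 and Tpm2 supply the main forms of muscle. Tpm1 read 9.10, 8.88 and 8.96 against 8.91, 9.67 and 9.02, and only interimplantation array 2 stood out (difference −0.22, adjusted p = 0.611). Its dimmer probe sets were at −0.029 and 0.066. Tpm2 was at −0.17 by its brightest probe set (adjusted p = 0.406). Another probe set of Tpm2 read 5.48, 4.95 and 5.39 against 5.58, 6.27 and 5.77, with no overlap and a difference of −0.60 (adjusted p = 0.110). Tpm3, which is made in most cells, was at −0.08, and its 5 probe sets ran from −0.08 to 0.16. Set against Tpm4 within the array, Tpm1, Tpm2 and Tpm3 changed by −0.85, −0.80 and −0.71 at the site, with groups that did not overlap in any of the 3 ratios (exact permutation p = 0.10, adjusted p = 0.129). The 3 ratios share the denominator Tpm4, which was at 0.62. By their brightest probe sets Tpm1, Tpm2 and Tpm3 themselves overlapped between the groups, so the ratios largely restate the change of Tpm4.

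**Figure D3:**
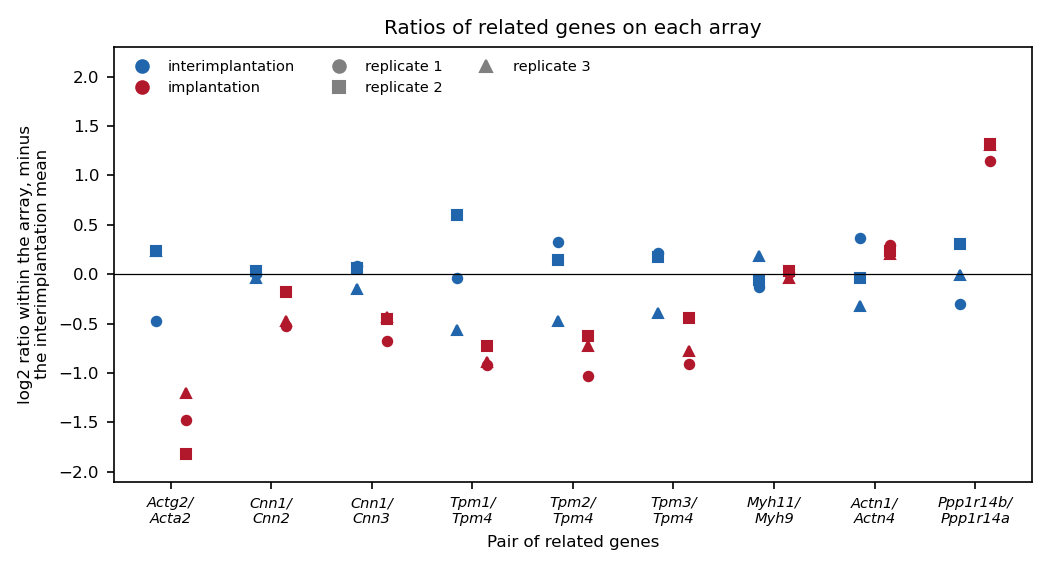
Log2 ratio of 2 related genes within each array, minus its mean over the interimplantation arrays (y axis), for 9 pairs (x axis). Blue and red symbols are the interimplantation and implantation arrays. The pairs with Tpm4 share that denominator, which was higher on every implantation array. Actg2/Acta2 changes by −1.50 at the implantation site with no overlap, and Actn1/Actn4 overlaps. Myh11/Myh9 overlaps with the brighter of the 2 Myh11 probe sets (the dimmer one is not drawn). The denominator of Ppp1r14b/Ppp1r14a lies close to the median of the Bacillus controls, so that this pair mainly restates the change of Ppp1r14b.

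The remaining thin filament genes were not called. Lmod1, a leiomodin that starts new actin filaments, was at −0.25 (adjusted p = 0.309). Smtn, the actin-binding smoothelin of contractile cells, was at −0.13. Cald1, caldesmon, which blocks myosin on actin, was at 0.096 by its brightest probe set and at −0.14 and −0.30 by the others.

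Of the 7 measured genes of myosin and its regulation, 1 rose, none fell and 6 were not called. Their median difference was −0.18. Ppp1r14b encodes a widely expressed relative of CPI-17, and both proteins inhibit myosin phosphatase. It read 8.24, 8.31 and 8.31 at the site and 7.04, 7.32 and 7.25 between the sites. The implantation arrays lay within a narrow band well above all the others. The mean rose from 7.20 ± 0.15 to 8.28 ± 0.042 (SD, n = 3), 2.12-fold (difference 1.08, SE 0.092, adjusted p = 1.43e-04), which was the increase of rank 12 among all genes. Ppp1r14b was called under all of its 15 alternatives, with differences from 0.56 to 1.48. The lowest of these is the mean with its other, dimmer probe set, which was at 0.037 (adjusted p = 0.932).

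Ppp1r14a encodes CPI-17 itself, the form of smooth muscle. It was dim, at 2.83, 2.73 and 2.74 against 3.07, 2.76 and 3.00, close to the median of the Bacillus controls, and was not called (difference −0.18, adjusted p = 0.464). The ratio of Ppp1r14b to Ppp1r14a is therefore not read here, since its denominator lay close to the median of those controls.

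Myh11, the heavy chain of smooth muscle myosin, differed between its 2 probe sets. The brighter one read 4.73, 4.65 and 4.62 at the site and 4.48, 4.57 and 4.76 between the sites, a difference of 0.059 (adjusted p = 0.836). The dimmer one read 3.08, 3.42 and 3.14 against 3.98, 4.31 and 3.90, and its mean fell from 4.06 ± 0.22 to 3.21 ± 0.18 (SD, n = 3), 1.80-fold (difference −0.85, SE 0.12, adjusted p = 0.00342). Both probe sets lay above the median of the Bacillus controls and below the brightest of them. Which of the probe sets follows the hamster transcript was not tested. Myh9, the heavy chain of non-muscle myosin, was at 0.057, with its other 3 probe sets at 0.0082 to 0.013. The overlap of the groups in the ratio of Myh11 to Myh9 holds for the brighter Myh11 probe set, and the ratio was not computed for the dimmer one.

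The light chains and their kinase were all negative, and none was called. Myl9, the regulatory light chain of smooth muscle, read 4.88, 4.61 and 4.76 at the site and 4.94, 5.31 and 5.12 between the sites, without overlap (difference −0.37, SE 0.11, adjusted p = 0.122). Without interimplantation array 1 it was called lower (−0.46, adjusted p = 0.0324), which was its only call, 1 of 15 alternatives. Mylk, the kinase that acts on it, read 4.13, 4.29 and 4.40 against 4.49, 4.53 and 4.69, again without overlap (difference −0.30, SE 0.096, adjusted p = 0.160). Its other probe sets were at −0.11 and −0.17. Myl6, the essential light chain that muscle and non-muscle myosins share, was at −0.23 (adjusted p = 0.233). Those 3 genes ranked between 228 and 815 among the decreases of all genes.

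Of the intermediate filament genes, Des and Vim were measured. Des, desmin, the filament protein of muscle cells, read 6.83, 6.54 and 6.77 at the site and 6.76, 6.43 and 6.57 between the sites. The groups overlapped, and the difference was 0.13 (95% interval −0.11 to 0.36, adjusted p = 0.671). The dimmer probe set of Des was at −0.087. Vim, vimentin, the filament protein of stromal, endothelial and vascular cells, was negative by all 3 of its probe sets, at −0.29, −0.37 and −0.40. Only the dimmest of these was called, at 7.50, 7.74 and 7.58 against 7.90, 8.01 and 8.11 (adjusted p = 0.0470). That call was lost without implantation array 1, 2 or 3 or interimplantation array 2 or 3 (adjusted p from 0.0567 to 0.230), and with the hybridisation controls as a covariate or as the scale (adjusted p = 0.108 and 0.995).

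None of the 14 measured attachment genes was called, 6 were negative and 8 positive, and their median difference was 0.034. Fhl1, a LIM domain protein best known from striated muscle, had the lowest value, at 4.54, 4.53 and 4.95 against 5.31, 4.76 and 5.58 (difference −0.54, SE 0.18, adjusted p = 0.164). The groups overlapped through interimplantation array 2, and without that array Fhl1 was called lower (−0.77, adjusted p = 0.0195). With the replicate number as a block it was called lower on all 6 arrays (−0.54, adjusted p = 0.0255). Those were the only 2 calls of Fhl1 in 15 alternatives. With the hybridisation controls as a covariate its difference was −0.090 (adjusted p = 0.891), and without interimplantation array 3 it was −0.37 (adjusted p = 0.383). Vcl, vinculin, which ties actin to adhesion plaques, read 4.35, 3.72 and 4.08 against 4.48, 4.42 and 4.44 by its brighter probe set (−0.40, adjusted p = 0.166), and its other probe set was at 0.17. Synpo2, an actin-bundling protein of the Z disc and dense body, had the highest value, 4.89, 4.79 and 4.80 against 4.47, 4.56 and 4.72, without overlap (difference 0.25, adjusted p = 0.220).

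The actin cross-linkers were not called. Actn1, an alpha-actinin, was at 0.20, with other probe sets at 0.020 and 0.24, and Actn4, its relative, at −0.046. The Actn1 probe set at 0.24 was higher on every implantation array (95% interval 0.052 to 0.43, adjusted p = 0.214). The ratio of Actn1 to Actn4, by their brightest probe sets, overlapped between the groups, with a mean change of 0.24 (exact permutation p = 0.40, adjusted p = 0.450). Flna, filamin A, was bright on all arrays, at 8.43, 8.35 and 8.28 against 8.06, 8.41 and 8.21 (difference 0.13, 95% interval −0.09 to 0.34). Csrp1, a LIM protein of smooth muscle, was lower on every implantation array by its brighter probe set (−0.15, adjusted p = 0.476), and at 0.046 by the other.

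The genes that tie these linkers to the membrane and the matrix were not called either. Sgcb and Sgcd, which encode beta- and delta-sarcoglycan of the dystrophin complex, were at 0.18 and 0.15, and the dimmer probe set of Sgcb was at −0.056. The integrin chain Itga7, which binds laminin, was at 0.048 and Itga8 at 0.020. Itga8 was dim, at 2.73 against 2.71, close to the median of the Bacillus controls (2.68), so little can be read from its difference. Ilk, the integrin-linked kinase, was at −0.030, and the LIM and PDZ proteins Pdlim3 and Pdlim7 were at −0.023 and 0.084. For these 7 genes the 95% intervals of the difference reached from −0.37 at the lowest to 0.41 at the highest.

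None of the 5 regulators and surface proteins was called. Srf read 6.25, 6.49 and 6.45 at the site and 6.55, 6.56 and 6.43 between the sites (difference −0.12, 95% interval −0.32 to 0.078). Myocd, its cofactor, was at −0.092 by its brighter probe set and 0.21 by the other. Oxtr, the receptor through which oxytocin makes the uterus contract, read 5.94, 5.74 and 5.76 against 5.79, 5.90 and 5.82, with overlap (difference −0.023, 95% interval −0.21 to 0.17). Kcnmb1, the muscle subunit of the calcium-activated potassium channel, was at 0.13. The small heat shock protein Hspb7 was at −0.18 by its brightest probe set, lower on every implantation array. Its other probe sets were at 0.038 and −0.092.

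The list was also split by where the genes are usually expressed. Of 24 measured genes counted as muscle genes, 2 fell, none rose and 16 were negative, with a median of −0.14. Acta2, Cald1, Tpm1, Csrp1, Mylk, Oxtr and Itga8 were counted there, although Acta2, for example, is also made by other cells. Of 17 widely expressed genes, 1 rose, none fell and 8 were negative, with a median of 0.00015. The groups of arrays did not overlap for 7 lower and 1 higher of the muscle genes and for 2 lower and 3 higher of the others, where 12.1% and 8.02% of all genes were so separated. Fhl1, abundant in striated muscle but made in other tissues too, was counted as widely expressed. The split was made with earlier results of these data known and was not tested.

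The arrays of a group differed in how far the thin filament genes deviated. The mean over its 13 genes, taken as deviation from each gene's own mean, was −0.12, −0.25 and −0.045 on implantation arrays 1 to 3 and 0.055, 0.24 and 0.12 on interimplantation arrays 1 to 3. The most extreme array of each group was therefore number 2. Interimplantation array 2 was the highest of the 6 arrays for 11 of the 41 genes, among them Actg2, Tagln, Acta2, Tpm1, Lmod1 and Myl9, and implantation array 2 was the lowest for 15, among them Actg2, Tagln, Acta2, Tpm1, Tpm2, Myl9 and Vcl. Over all genes these shares were 22.6% and 18.8%, against 26.8% and 36.6% of the members. Without interimplantation array 2, Actg2 was at −1.48 and Tagln at −1.01, both still called (adjusted p = 0.0251 and 0.00306). Without implantation array 2 they were at −1.42 and −1.14 (adjusted p = 0.0257 and 0.0249).

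**Figure D4:**
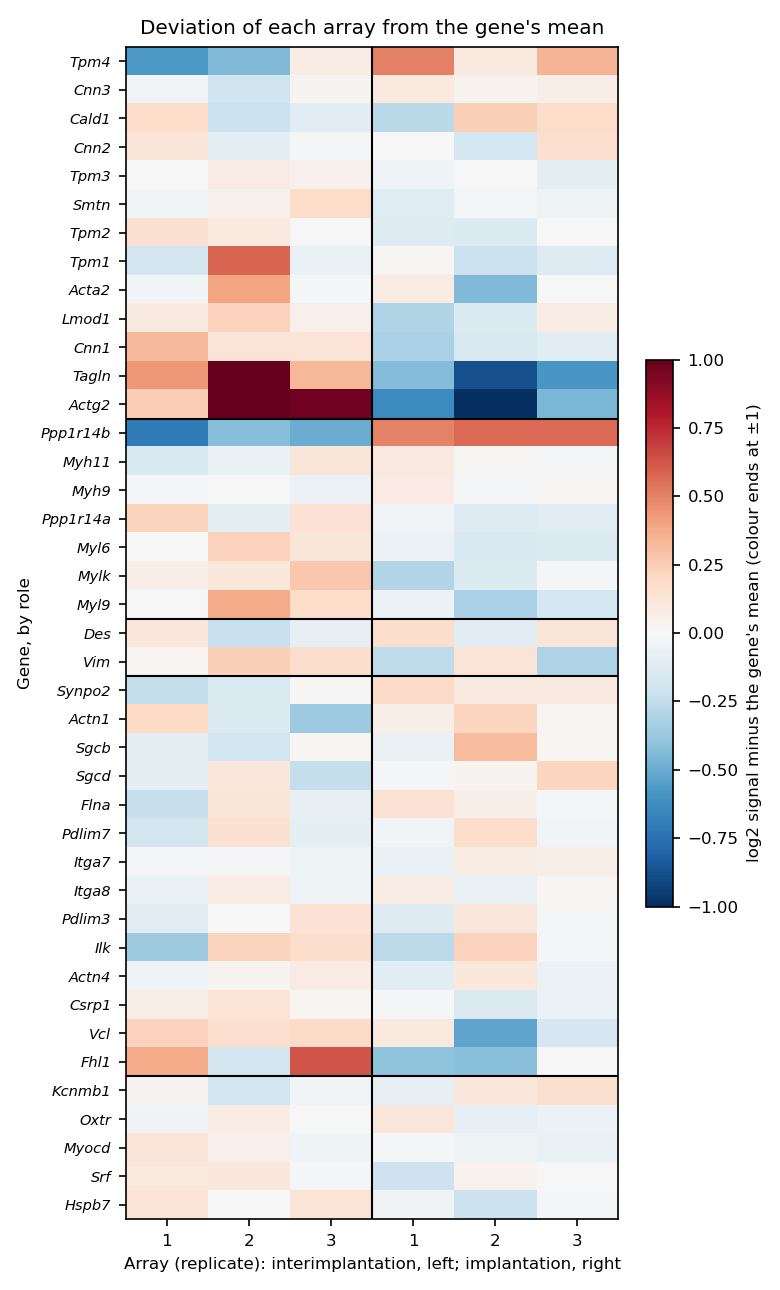
Deviation of each array from the gene's mean over the 6 arrays (colour, log2 RMA signal, ending at ±1) for the 41 genes by role, with the 3 interimplantation arrays on the left and the 3 implantation arrays on the right. Red on the left and blue on the right is strong for Actg2 and Tagln and weak for Cnn1, Mylk and Myl9, the reverse is seen for Ppp1r14b and Tpm4, and the attachment genes show no common pattern.

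Other genes of the same system gave few calls. Mef2a, a transcription factor of muscle genes, fell, at 6.52, 6.75 and 6.54 against 7.14, 7.17 and 7.21 (difference −0.57, SE 0.088, adjusted p = 0.00515). The myocardin-related cofactors Mrtfa and Mrtfb were at 0.016 and 0.12 and were not called. Of 21 measured genes of contraction control, none was called (median −0.044). The calcium pump Atp2a2 had the highest value there, at 0.43, with no overlap (adjusted p = 0.0773). Of 38 other adhesion and cytoskeleton linkers, 1 rose and none fell (median −0.0049). This was Palld, palladin, an actin-bundling protein, at 7.33, 7.45 and 7.26 against 7.07, 6.80 and 6.87 (difference 0.43, SE 0.095, adjusted p = 0.0371).

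Markers of the other tissues of the uterine wall were read beside these genes. Of 13 measured epithelial markers, 12 were negative and 8 were lower with no overlap (12.1% of all genes were). Cldn7 was called (−0.78, adjusted p = 0.00868), and the brightest probe set of Cldn3 was not (−0.30, adjusted p = 0.178), while 2 other probe sets of Cldn3 were called lower (−0.72, adjusted p = 0.00230, and −0.39, adjusted p = 0.0437). The mean level over the epithelial list ran from 5.12 to 5.17 at the site and from 5.29 to 5.41 between the sites. Of 7 pericyte markers, none was called and 3 were negative, with mean levels of 4.71 to 4.79 against 4.73 to 4.77. Of 8 endothelial markers, none was called and 5 were negative (5.21 to 5.24 against 5.19 to 5.31). Of 8 stromal markers, 7 were negative and none was called by the brightest probe set (6.51 to 6.64 against 6.64 to 6.65), although another probe set of Pdgfra fell by 0.70 (adjusted p = 0.00179). On this array scale no marker is at 0, and 1 epithelial marker lay below the median of the Bacillus controls. The part of these tissues in the differences of the muscle genes was not tested. The uterine genes Hoxa10, Hoxa11, Pgr, Esr1, Hand2, Msx1 and Foxa2 all lay above that median, and none was called. Of these 7, 4 were negative and 3 positive, from −0.22 to 0.58. Hand2 had the highest value and was higher on every implantation array (adjusted p = 0.0685). Msx1 was lower on every implantation array (−0.052, adjusted p = 0.831).

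Every direction is relative to the majority of probe sets, since RMA makes the arrays' distributions alike. The 18 hybridisation control probe sets read 6.64 ± 0.17 on the implantation arrays and 7.03 ± 0.27 on the interimplantation arrays (SD, n = 3). Scaling every array to them moved the median difference of all genes to 0.38 and left 4 of the 41 genes negative, Actg2 (−1.34), Tagln (−0.87), Fhl1 (−0.15) and Vcl (−0.0013). Actg2 and Tagln kept their calls (adjusted p = 2.94e-07 and 0.00491), Ppp1r14b was at 1.48, and Tpm4 was called higher (1.02, adjusted p = 3.64e-04). Cnn1 lay at 0.0056 and the dimmer probe set of Myh11 at −0.45, neither called (adjusted p = 0.980 and 0.129).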

How the data were processed

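Biotin-labelled RNA of 6 uterine samples was hybridised to an Affymetrix mouse array. The authors used Partek 6.6 and RMA, per the submitters' processing notes, which usually corrects background, equalises the distributions of the arrays and gives 1 deposited log2 value per probe set. The notes do not name the log base, and 2 was taken from what RMA normally gives and from the range. Of 22690 probe sets, 64 controls were left out. The annotation gave 20380 probe sets 1 symbol, 691 several and 1555 none.

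The comparison used limma 3.58.1 under R 4.3.3 (two-sided, lmFit and eBayes with group alone), with Benjamini-Hochberg adjustment over 22626 probe sets. No filter on level was used. The calculation was tested on simulated data. The members, gene lists, pairs and rules were chosen with earlier results of these data known. Every member is named, with full statistics for those with a called probe set, for core contractile genes and for related genes of a family. No sequence was used.

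Alternatives were a block for the replicate number, another variance model, array weights, repeated quantile normalization, both uses of the hybridisation controls, filters on dim and on shared probe sets, averaged probe sets, and leaving out each array. The result of 1 gene list is not reported here.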

Additional observations from a re-analysis of the deposited data

How the results depend on the processing

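Ppp1r14b and Tagln kept their calls under every alternative run (15 each), and Actg2 under 12 of 14. The probe sets called higher and lower numbered 284 and 238, and 294 and 240 with the replicate number as a block, which gave 2 member genes higher (Ppp1r14b and Tpm4) and 3 lower (with Fhl1). Whether same-numbered arrays shared an animal is not stated. The deviations of same-numbered arrays correlated at −0.090, 0.071 and −0.028, and 2 of 6 arrays correlated best with their own number. Member genes called higher also numbered 2 with a trended and robust variance, with scaling to the hybridisation controls and without dim probe sets. Member genes called lower numbered 1 with a trended and robust variance, with the controls as a covariate and without shared probe sets, and 4 with averaged probe sets of a gene, where Myh11 turned from 0.059 to −0.40 and was called (adjusted p = 0.0338). Without single arrays, higher members numbered 1 to 2, higher probe sets 117 to 329 and lower ones 88 to 401.

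With array weights 363 probe sets were lower, and the median differences were −0.079 for all members and 0.039 for the widely expressed ones. With scaling to the controls 752 probe sets were higher and 13 lower, and the medians were 0.35 for all members, 0.23 for the thin filament, 0.22 for myosin, 0.32 for intermediate filaments, 0.43 for attachment, 0.31 for regulators, 0.26 for muscle genes and 0.40 for widely expressed ones. With the controls as a covariate 77 were higher and 130 lower, with medians of −0.090 (all), 0.017 (myosin), −0.078 (attachment), −0.092 (muscle) and −0.090 (widely expressed). Without dim probe sets the myosin median was 0.057. Without shared probe sets 138 were higher and 96 lower, and the medians were −0.066 (thin filament), −0.023 (regulators) and −0.026 (muscle). With averaged probe sets they were −0.17 (intermediate filaments), −0.023 (regulators) and −0.097 (muscle). Without single arrays the medians ran from −0.089 to −0.030 (all), −0.21 to −0.098 (thin filament), −0.15 to −0.093 (muscle) and −0.027 to 0.064 (widely expressed). The cause of these changes was not tested. Fewer probe sets or arrays enter where some were left out.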
